A study of Mus musculus with 20 samples.

Results

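The genes described are 9 that are active in the mouse 2-cell embryo: 5 near-identical copies of Zscan4 (Zscan4b, Zscan4c, Zscan4d, Zscan4e and Zscan4f), the pair Tcstv1 and Tcstv3, Zfp352 and Gm4340. They were chosen by name, as the rows of the count and FPKM tables whose Ensembl identifier maps to these symbols, and all 9 were found, 1 row each, among 47643 genes. The identifiers were ENSMUSG00000095339 (Zscan4b), ENSMUSG00000054272 (Zscan4c), ENSMUSG00000090714 (Zscan4d), ENSMUSG00000095936 (Zscan4e), ENSMUSG00000070828 (Zscan4f), ENSMUSG00000096284 (Tcstv1), ENSMUSG00000095821 (Tcstv3), ENSMUSG00000070902 (Zfp352) and ENSMUSG00000090854 (Gm4340). Reads of near-identical copies cannot be assigned safely to 1 copy, so the 5 Zscan4 rows were also summed in each library.

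RNA sequencing followed mouse embryonic fibroblasts (MEFs) through chemical reprogramming, in which small molecules alone turn fibroblasts into chemically induced pluripotent stem (CiPS) cells. All cells were of strain B6DBA. Untreated reprogramming cells were taken at days 16, 20, 24 and 28, with 2 libraries a day, and cells given crotonic acid (CA, a short-chain fatty acid, 6 to 8 mM in the medium from day 16 to day 28) at days 20, 24 and 28, with 2 libraries a day. The other libraries were 1 of MEFs, 1 each of 2 CiPS lines made by the CA method, 1 of a CiPS line from the three-step method, and 1 of an embryonic stem (ES) line named OG4. Whether the 2 libraries of a group are separate cultures is not stated in the labels, and the p-values then reflect the spread among these libraries alone, which could be technical. Each kind of line other than the CA method was 1 line, and a CiPS line made by a BrdU method was not analysed here.

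Zscan4 genes encode proteins with a SCAN domain and zinc fingers. They are transcribed in a burst at the late 2-cell stage of the mouse embryo and, later, in a small and changing fraction of ES cells, where they are known for telomere lengthening and genome stability. The homeodomain factor Dux switches on Zscan4, Tcstv1, Tcstv3, Zfp352 and many repeat-family genes in these cells, and Dppa2 and Dppa4 act upstream of Dux.

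The promoters of the Zscan4 copies are shown because the copies are read as a sum below, and the sequences show how alike they are. RefSeq's table for GRCm38.p6 held promoters of 6 of the 9 genes, and the 204 bases that the promoters of Zscan4b, Zscan4c, Zscan4d and Zscan4f share are given 5′ to 3′ on the strand of the gene. Capitals mark TATAAA and TGATAGAATCA, which on the opposite strand is a match of the motif TGATT, any 2 bases, then ATCA.
Zscan4b, chr7:10905063-10905266, minus strand: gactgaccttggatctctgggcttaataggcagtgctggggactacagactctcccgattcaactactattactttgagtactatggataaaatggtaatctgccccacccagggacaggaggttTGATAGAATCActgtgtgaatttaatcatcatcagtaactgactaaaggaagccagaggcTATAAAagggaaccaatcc
Zscan4c, chr7:11005506-11005709, plus strand: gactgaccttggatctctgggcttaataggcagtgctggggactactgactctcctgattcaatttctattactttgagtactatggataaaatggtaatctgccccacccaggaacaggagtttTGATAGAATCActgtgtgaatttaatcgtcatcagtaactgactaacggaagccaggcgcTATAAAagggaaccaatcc
Zscan4d, chr7:11166195-11166398, minus strand: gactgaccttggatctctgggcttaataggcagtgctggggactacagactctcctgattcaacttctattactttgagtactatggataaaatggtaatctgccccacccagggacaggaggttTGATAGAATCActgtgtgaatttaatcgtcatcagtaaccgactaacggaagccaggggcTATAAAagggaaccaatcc
Zscan4f, chr7:11397699-11397902, plus strand: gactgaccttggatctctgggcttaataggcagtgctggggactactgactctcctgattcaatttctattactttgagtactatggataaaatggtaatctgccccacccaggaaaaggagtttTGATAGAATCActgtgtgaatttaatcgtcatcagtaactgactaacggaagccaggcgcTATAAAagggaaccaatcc
The stretches end 12, 35, 46 and 12 bases before the RefSeq start of Zscan4b, Zscan4c, Zscan4d and Zscan4f, so TATAAA begins at -31, -54, -65 and -31 from those starts. Over the 6 pairs the stretches were 94.6% to 99.5% identical, with 1 mismatch between Zscan4c and Zscan4f. That motif, a form of the sequence known to be bound by mouse Dux, was found in the 250 bases before the start of all 4 Zscan4 genes and, among all 32851 promoters of the table searched on both strands, in 58, or 0.177%. TATAAA was in the same 4 and in 12.4% of all promoters, and CCAAT was in these 4 and in Gm4340, against 33.8% of all promoters. GGGCGG was in none of the 6 member promoters and in 32.7% of all, and the promoter of Zfp352 held none of the 4 motifs. A match describes letters only and is not evidence of binding.

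Over the 10 pairs of Zscan4 copies the aligned parts of the annotated transcripts (GENCODE M21) were 94.1% to 97.5% identical, and those of Tcstv1 and Tcstv3 were 92.1% identical over 656 aligned bases. Of the 100-base windows of Zscan4d 29.6% also occurred in another gene, against 72.8% to 89.5% for the other 4 copies. The share was 94.5% for Gm4340, whose windows recurred in 6 other genes, 4.06% for Tcstv1, 7.79% for Tcstv3 and 0.643% for Zfp352. Values of single Zscan4 copies and of Gm4340 are therefore uncertain, and Zscan4a was not analysed here. The Zscan4 copies lie on chromosome 7, Tcstv1 and Tcstv3 on 13, Zfp352 on 4 and Gm4340 on 10.

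Total counted reads per library ran from 17475848 to 26609755. Of the marker lists, 8 fibroblast genes summed to 73700 CPM (counts scaled to library size and TMM factor, as for every level in CPM here) in MEFs and 1370 to 2900 in the cultures of days 20 to 28, and 10 pluripotency genes to 4170 to 4980 in the lines, 602 to 672 at day 28 with CA, 629 to 669 without, and 3.06 in MEFs. The pluripotency sum was already 261 to 291 CPM at day 16, and its genes did not move together. Nanog was 0.552 and 1.22 CPM at day 28 with CA, 0.713 and 0.994 without, 1.41 in MEFs and 448 to 678 in the lines. The fibroblast sum was 16100 to 22600 CPM in the 4 lines. Transcripts of 8 liver genes, Alb among them, summed to 36.6 CPM in the second library of day 20 with CA, 100 in the first of day 28 with CA and 72.1 in MEFs, and to at most 1.59 elsewhere; calls that were lost without those 2 CA libraries are named beside the results. In bulk RNA, fewer cells that express a gene and less of its RNA per cell cannot be told apart.

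Zscan4 RNA was nearly absent from fibroblasts and from cultures up to day 20, appeared at day 24, and was highest in ES cells. The summed copies had 0 counts in both day 16 libraries, which allows a level of up to 0.0683 CPM, 1 count in MEFs, 1 and 0 counts in the untreated libraries of day 20, and 3 and 0 with CA. At day 24 the untreated libraries had 12 and 9 counts (0.51 and 0.425 CPM), and the CA libraries 59 and 18 (3.17 and 0.937 CPM). At day 28 the values were 251 and 162 counts (12.8 and 7.32 CPM) without CA and 1075 and 834 (49.4 and 37.6 CPM) with it. The lines lay above every culture: 149 and 95.6 CPM in the CA lines, 433 in the three-step line and 483 in the ES line.

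**Figure D1:**
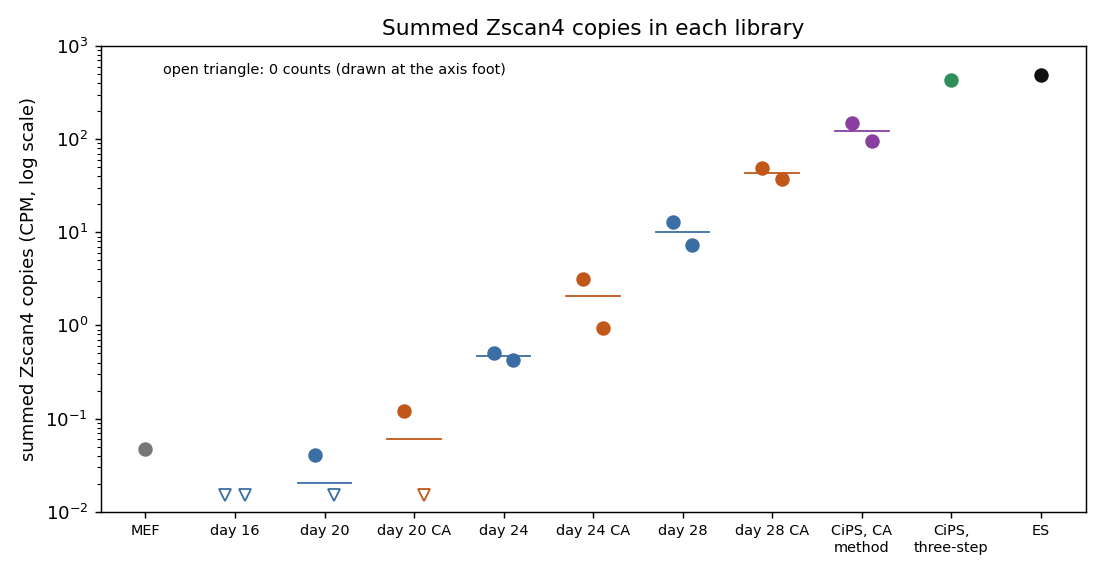
Summed counts of the 5 Zscan4 copies in each of 19 libraries, in CPM on a log axis; points are libraries, short lines the means of groups of 2, and open triangles libraries with 0 counts. Libraries before day 24 lie at or below 0.121 CPM, and group means go from 10.1 CPM at day 28 without CA to 483 CPM in ES cells.

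Ordered by group mean, the series ran from day 16 (0), day 20 (0.0204 CPM) and MEFs (0.047) to day 20 with CA (0.0605), day 24 (0.467 ± 0.0599, SD, n = 2), day 24 with CA (2.05 ± 1.58), day 28 (10.1 ± 3.87), day 28 with CA (43.5 ± 8.35), the CA lines (122 ± 37.6), the three-step line (433) and the ES line (483). The first 4 of these rest on 0 to 3 counts a group and cannot be ordered. From day 20 with CA upwards no library of a group overlapped one of its neighbour in the order. The closest pair was the three-step and ES lines, with 1 library each, a ratio of means of 1.12 and no spread to set it against.

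Between days 20 and 28 the Zscan4 copies rose in both arms. Without CA the summed copies went from 1 to 413 counts, 453 times as high in CPM (95% exact counting interval 80.8 to 17900, which covers counting error only; edgeR's quasi-likelihood test, Benjamini-Hochberg adjusted p = 0.00359). That ratio rests on a single count in 1 of the day 20 libraries, and the fitted log2 fold change ran from 7.78 to 10.78 with single libraries left out (edgeR adjusted p up to 0.0493). With CA they went from 3 to 1909 counts, a ratio of 678 (232 to 3290; edgeR adjusted p = 0.00121; log2 fold change 8.47 to 12.89 and adjusted p up to 0.0164 with single libraries left out). From day 24 to day 28, where counts were higher, the ratio was 21.1 (13.6 to 34.4) without CA and 21.3 (17.0 to 27.2) with it.

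Of the 9 genes 8 passed the filter on low counts in this fit, Zfp352 being too low. Among cultures, the Zscan4 copies had at least 10 counts in both libraries of a group only at day 28. Tcstv1, Tcstv3 and Gm4340 had that only at day 28 with CA. The 8 thus entered through the groups where they were high, and their counts of calls and medians are not read as support. All 5 Zscan4 copies passed the test without CA, against 3.94% of the 17387 genes tested in that direction. The copies can share reads, so their 5 calls are not independent. Tcstv1, Tcstv3 and Gm4340 had edgeR adjusted p of 0.0783, 0.0813 and 0.0733. With the replicate number as a block, which pairs the first libraries of all groups and the second, all 8 were higher, against 12.1% of genes. With CA all 8 were higher, against 4.54% of genes, and 8 with the block, against 12.8%. The median log2 fold change of the 8, with genes at 0 counts set at their bound, was 3.96 without CA and 6.43 with it, against 0.02 over all genes; both comparisons rest on separate libraries. The untreated count rests on both day 20 libraries, since it was 0 without either of them, and the count with CA was 5 without any one of the 4 CA libraries of days 20 and 28. Without both CA libraries that held liver transcripts, the rise with CA had an edgeR adjusted p of 0.0735 for the summed copies. No tested gene was called then. Each group compared had 1 library left, so this loss cannot be told apart from the loss of a replicate. With the block as well, the adjusted p of the sum was 0.00852 and 7 of the 8 were called, against 1.47% of genes.

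Lower bounds show the size for genes with no counts at day 20. Zscan4c was at least 53.7-fold higher at day 28 than at day 20 without CA and at least 218-fold higher with it, against a floor of 3 counts over the day 20 group. For Tcstv1, a 2-cell and ES cell transcript, the bounds were 8.41-fold and 34.8-fold. For Gm4340 they were 9.14-fold and 37.3-fold. Zfp352, a zinc finger gene of the same burst, had 1 count at day 28 without CA, so no fold is given there, and was at least 2.84-fold higher with CA.

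At day 28 counts of all 9 genes were higher in the CA libraries than in the untreated ones. The summed Zscan4 copies were 4.39 times as high with CA as without (exact counting interval 3.95 to 4.9), and both CA libraries lay above both untreated ones. Each of the 9 genes had its CA libraries above its untreated ones, a pattern that 16.4% of the 17387 tested genes showed in that direction. The ratios of counts ran from 3.96 for Zscan4c (3.31 to 4.78) to 5.44 for Tcstv3 (2.85 to 11.5), with 7.61 for Zfp352 on 8 against 1 counts (1.02 to 337).

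The genes outside the Zscan4 cluster showed this on few counts. Tcstv1 had 19 and 4 counts without CA and 52 and 46 with it, and Tcstv3 had 8 and 3 against 30 and 33. Gm4340 had 18 and 7 counts without CA and 43 and 62 with it, and Zfp352 had 0 and 1 against 4 and 4. In each of the 4 the untreated libraries lay apart from the CA libraries, and for Tcstv1, Tcstv3 and Gm4340 the ratio of the higher to the lower untreated library was larger than that of the CA libraries. Among the Zscan4 copies, Zscan4c, the most abundant, had 88 and 59 counts without CA and 341 and 272 with it.

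The edgeR fit on groups alone did not call this difference, and the fit with the replicate number did for the summed copies. The summed copies had a log2 fold change of 2.12 ± 0.54 (SE) and an edgeR adjusted p of 0.45, and 0 of the 8 tested genes were called, as were 0.0% of all genes in that direction. The median log2 fold change of the 8 was 2.10, against -0.01 over all genes. Tcstv1, Tcstv3 and Gm4340 needed the CA libraries of this day to pass the filter, which favours higher values with CA. At an unadjusted p under 0.05, 8 of the 8 and 943 of all 17387 genes stood. With the block the log2 fold change was 2.17 ± 0.30 and the adjusted p 0.0175. Then 2 of the 8 passed, Zscan4d (2.16 ± 0.34, adjusted p = 0.0316) and Zscan4f (2.37 ± 0.38, adjusted p = 0.0473), against 0.299% of all genes in that direction. Zscan4c and Zscan4e had an adjusted p of 0.0516 each in the blocked edgeR fit, Zscan4b 0.0582, Tcstv3 0.161, Tcstv1 0.21 and Gm4340 0.292. By DESeq2 the adjusted p of the summed copies was 0.0231.

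The first day 28 CA library, which held the liver transcripts, had 49.4 CPM of the summed copies, and the second, which had 0.857 CPM of liver genes, had 37.6 CPM, above the 12.8 and 7.32 CPM without CA. Without both libraries with liver transcripts the log2 fold change was 1.90 ± 0.62 (edgeR adjusted p = 1) and 2.46 ± 0.38 with the block (adjusted p = 0.161). Zscan4d and Zscan4f were no longer called, and 0 of the 8 genes were called with or without the block, against 0.0111% and 0.0% of genes higher. Summed extraembryonic endoderm genes were 11300 and 12900 CPM with CA and 15300 and 20900 without, and the part of such differences in cell makeup was not tested.

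**Figure D2:**
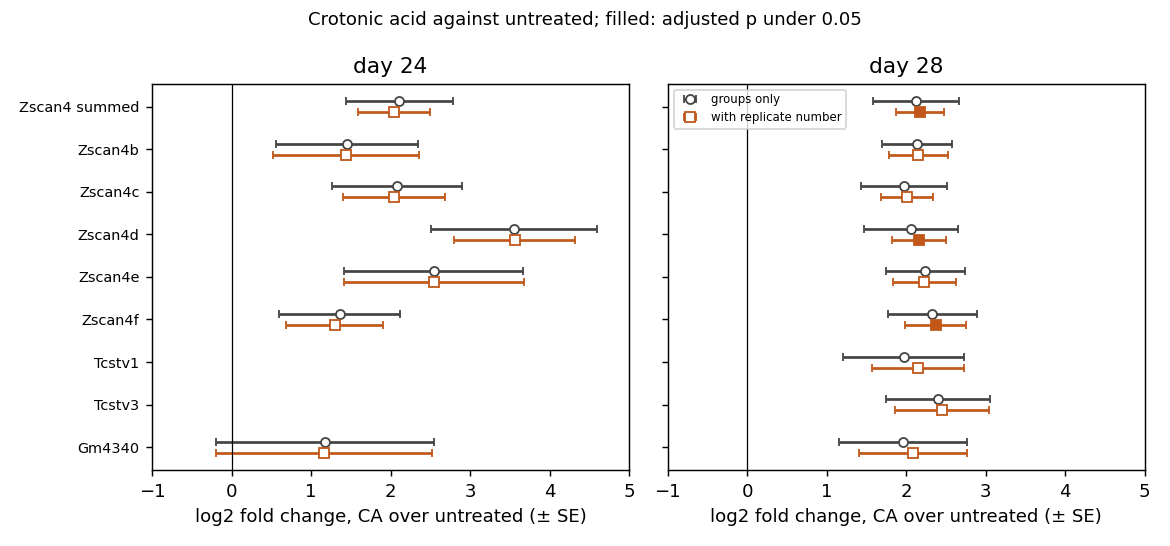
Log2 fold change (± SE) of CA over untreated cultures at days 24 and 28 for the summed Zscan4 copies and the tested genes, from fits with groups alone (circles) and with the replicate number (squares); filled symbols have an adjusted p under 0.05. All points lie above 0, and the 3 filled ones are the summed copies, Zscan4d and Zscan4f at day 28; Tcstv1 and Tcstv3 are not drawn at day 24, where the untreated libraries had 0 counts.

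At day 24 the summed copies were 4.34 times as high with CA (2.65 to 7.4), on 77 against 21 counts, and again the libraries did not overlap. The log2 fold change was 2.11 ± 0.67 (edgeR adjusted p = 0.658; 2.04 ± 0.45 and 0.104 with the block). The CA libraries differed by more than 3-fold from each other: without the first, the log2 fold change was 0.98, and without the second it was 2.75. Of the 9 genes 6 had both CA libraries above both untreated ones, against 15.9% of tested genes, and Zscan4f, Zfp352 and Gm4340 overlapped. For Zscan4b, Tcstv1 and Tcstv3 that separation rests on single counts. Zscan4b had 4 and 1 counts with CA against 1 and 1 without, apart by library size alone in the closest pair. Tcstv1 had 4 and 1 against 0 and 0, and Tcstv3 had 3 and 1 against 0 and 0. None of the 8 tested genes was called, with or without the block, where 0.0% and 0.236% of all genes were called in that direction; 3 of the 8 and 821 of all 17387 genes stood at an unadjusted p under 0.05.

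At day 20 no fold can be given: the 9 genes had 0 to 2 counts each over 2 libraries in either arm, and the summed copies 3 with CA and 1 without. No member was called, with or without the block, against 0.0% and 0.023% of genes in the higher direction. The difference between the effects at days 28 and 20 therefore had a wide interval, a log2 difference of 0.79 (95% interval -5.44 to 7.02; edgeR adjusted p = 1). Averaged over 3 days the log2 fold change of the summed copies was 1.85 ± 0.71 (edgeR adjusted p = 0.315), with 0 members called, against 0.604% of genes. Of the tested members only Zscan4d and Zscan4e had a value there. The others had 0 counts in every day 20 library, so this fit could not call them, whatever days 24 and 28 showed. In an exact permutation test of log2(CPM + 0.5), with labels exchanged within each day, the mean difference was 1.15, made of 0.1, 1.25 and 2.1 at days 20, 24 and 28 (2-sided p = 0.0278, where the smallest possible is 0.00926). With labels exchanged within pairs of the same replicate number and day, the p was 0.0625, the smallest that the 64 arrangements allow, since 1 pair had 0 counts in both libraries. In the test within days, without either untreated library of day 24 that p was 0.0833.

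The established lines carried far more of these transcripts than the cultures of day 28. The log2 fold change of the summed copies in the 4 line libraries was 4.88 ± 0.45 over untreated day 28 (edgeR adjusted p = 5.01e-06) and 2.76 ± 0.39 over day 28 with CA (edgeR adjusted p = 0.000133). All 9 genes passed in both comparisons, where 29.1% and 28.2% of the 19597 genes tested were higher in the lines. Over day 28 with CA, 6 were called without the first of the 2 day 28 CA libraries and 7 without the second. Tcstv1 and Gm4340 were lost in both cases and Tcstv3 without the first. The median log2 fold changes of the 9 genes were 4.65 and 2.68, against 0.0 and -0.03 over all genes. The comparisons share the line libraries. Zfp352 had the largest change of the 9, with log2 fold changes of 6.96 ± 0.91 and 4.29 ± 0.68. It passed the filter in this fit through the lines alone, where it was high.

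Per library, Zfp352 stood at 0 and 0.02 FPKM (fragments per kilobase of gene, scaled to library size) at day 28, 0.0813 and 0.079 with CA, 1.38 and 0.53 in the CA lines, 2.76 in the three-step line and 1.67 in ES cells. Its place in the order of genes was the lowest in every one of these libraries. In ES cells Zscan4c, at 64.4 FPKM, was the highest per length, then Zscan4e (55.4), Zscan4f (50.4), Zscan4d (44.0), Zscan4b (21.3), Tcstv3 (13.5), Gm4340 (7.36) and Tcstv1 (6.25). In the CA cultures of day 28 the order was Zscan4c (6.09 FPKM), Zscan4d (4.45), Zscan4f (4.04), Zscan4e (3.63), Tcstv3 (2.82), Zscan4b (2.32), Gm4340 (1.83) and Tcstv1 (1.60).

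**Figure D3:**
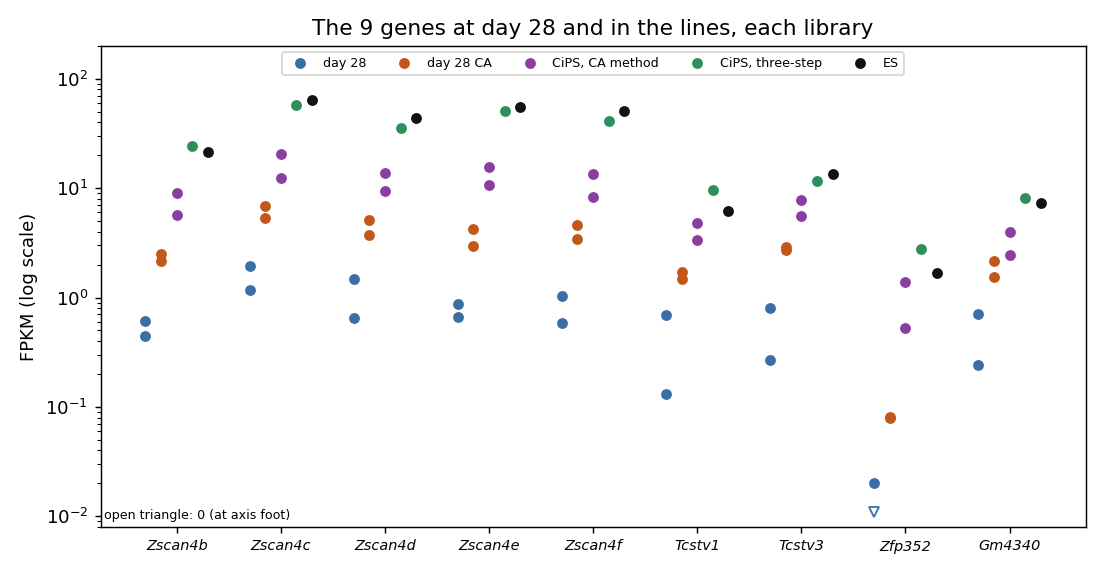
FPKM of the 9 genes, which is scaled by gene length, in each library of day 28 without and with CA and of the lines, on a log axis; points are libraries and the open triangle is a library with 0 counts. For all 9 genes the order of groups is day 28, day 28 with CA, CA lines, then the three-step and ES lines in either order, and Zfp352 is the lowest gene.

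In the CA lines the counts of these transcripts were lower than in the three-step line and the ES line, by the values of 2 libraries against 1. The summed copies were 0.252 times the ES level and 0.281 times the three-step level in the CA lines. For all 9 genes both CA lines lay below the other line, in both comparisons. That pattern was also shown by 39.4% of the 19597 genes against ES and 39.2% against the three-step line. The fit pooled the spread of all groups and assumed that a lone library varies like them. Its intervals use a normal quantile, so they are narrower than the degrees of freedom of the test would give. The log2 differences were -1.98 ± 0.46 (95% interval -2.88 to -1.08; edgeR adjusted p = 0.294) and -1.82 ± 0.46 (-2.72 to -0.92; edgeR adjusted p = 0.207). The median over the 9 genes was -1.52 against ES and -1.64 against the three-step line. No gene of the 9 was called in either, against 0.0204% and 0.0867% of genes lower; 5 and 6 of the 9 stood at an unadjusted p under 0.05. By DESeq2 the adjusted p values of the sums were 0.084 and 0.0809 and 2 of the 9 were called in each, against 0.142% and 0.318% of 33049 genes lower. By limma-voom the sums were at 0.0127 in both and 5 of the 9 were called in each, against 0.424% and 0.924% of 19597 genes lower. Fibroblast genes summed to 18100 and 21200 CPM in the CA lines, 22600 in ES and 16100 in the three-step line, and their part in the difference was not tested.

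The genes outside the cluster had ratios nearer to 1 than Zscan4 in these lines. Ratios of the CA lines to ES were 0.217 to 0.347 for the single Zscan4 copies and 0.441 to 0.656 for Tcstv1, Tcstv3, Zfp352 and Gm4340. Against the three-step line the ranges were 0.255 to 0.32 and 0.342 to 0.568. There the exact counting intervals of Zfp352 (0.262 to 0.445) and Gm4340 (0.322 to 0.474) overlapped that of Zscan4d (0.298 to 0.344). Those of Tcstv1 (0.355 to 0.497) and Tcstv3 (0.449 to 0.719) lay above those of all the copies. The three-step line itself was at 0.896 times the ES level for the summed Zscan4 copies, 1.56 times for Tcstv1 and 1.67 times for Zfp352, on 1 library each. The difference between these ranges was not tested. Tcstv1 was 6.62 and 4.65 CPM in the CA lines, 8.56 in ES and 13.4 in the three-step line. Tcstv3 was 3.89 and 2.79, 6.76 and 5.86 CPM in the same order. For each 100 Zscan4 counts the pair Tcstv1 and Tcstv3 gave 3.17 counts in ES and 4.44 in the three-step line, 7.07 and 7.78 in the CA lines, 7.63 and 9.47 at day 28 with CA, and 10.8 and 4.32 at day 28 without. The untreated values rest on 27 and 7 counts.

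Over the 8 libraries with at least 100 summed counts, Zscan4c made up 29.5% to 36.4%, Zscan4d 18.9% to 26.7%, Zscan4f 19.1% to 24.9%, Zscan4e 10.4% to 17.7% and Zscan4b 7.58% to 10.5%. The copy with the widest spread relative to its level was Zscan4e. Its share was 10.4% (95% Wilson interval 7.17 to 14.7) and 13.6% (9.14 to 19.7) at day 28, 13.0% (11.1 to 15.2) and 12.1% (10.1 to 14.5) with CA, 15.6% (14.4 to 16.9) and 16.8% (15.3 to 18.4) in the CA lines, 17.7% (17.0 to 18.4) in the three-step line and 17.1% (16.3 to 17.8) in ES. Every line lay above every culture. Intervals cover counting error only, and the sources used here do not give how reads of near-identical copies were shared out. RefSeq calls Zscan4e a pseudogene, and GENCODE M21 calls it protein coding.

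**Figure D4:**
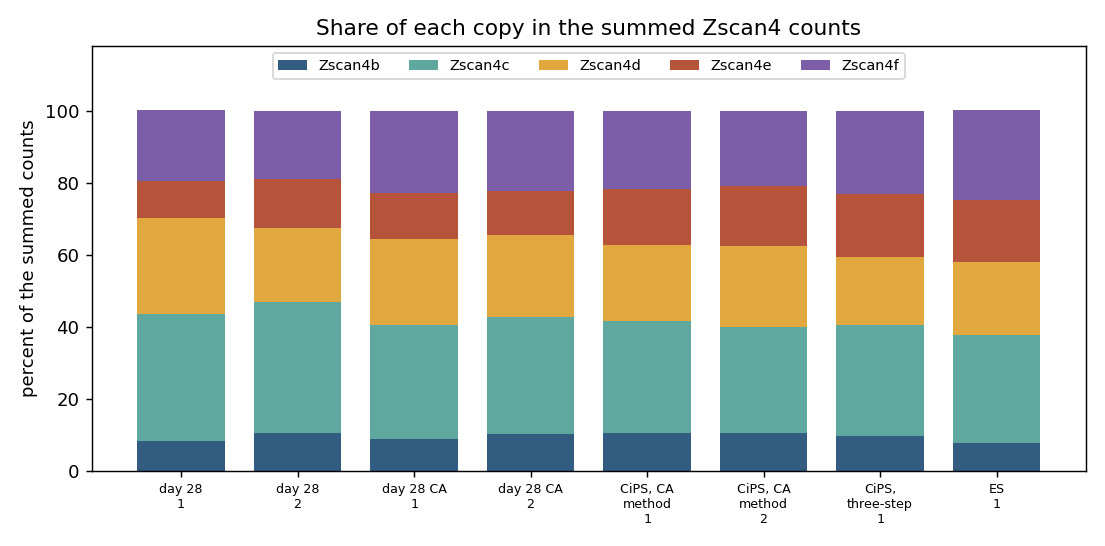
Percent of the summed Zscan4 counts given to each of the 5 copies in the 8 libraries with at least 100 summed counts; each bar is a library. Zscan4c is the largest part in every bar, and the part of Zscan4e is 10.4% to 13.6% in cultures and 15.6% to 17.7% in lines.

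The level of Zscan4 relative to Pou5f1, the gene of the core pluripotency factor Oct4, was higher at day 28 with CA than in the CA lines. Pou5f1 was 12.3 CPM at day 28, 20.0 with CA, 372 in the CA lines, 336 in the three-step line and 247 in ES cells. Summed Zscan4 counts per Pou5f1 count were 0.86 and 0.747 at day 28 and 2.29 and 2.04 at day 28 with CA. They were 0.402 and 0.255 in the CA lines, 1.29 in the three-step line and 1.96 in ES cells. The day 28 CA libraries had the highest ratio of all libraries with at least 20 Pou5f1 counts, and the CA lines were below every library of day 28. At day 24 the ratio was 0.222 and 0.25 without CA and 0.656 and 0.212 with it, so those groups overlapped. The order depended on the reference gene. Per count of Dppa5a, another pluripotency gene, the ratios were 0.0583 and 0.0365 at day 28, 0.234 and 0.199 with CA, 0.104 and 0.0735 in the CA lines, 0.269 in the three-step line and 0.372 in ES, so that the CA lines lay above day 28 without CA. With both references day 28 with CA lay above day 28 without CA and above the CA lines.

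**Figure D5:**
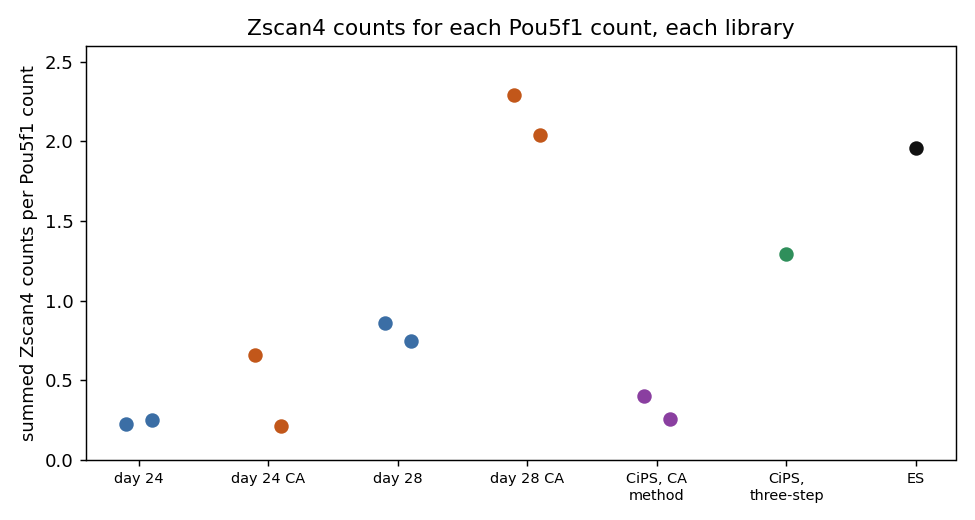
Summed Zscan4 counts for each Pou5f1 count, by library, for libraries with at least 20 Pou5f1 counts; points are libraries. Day 28 with CA is at 2.29 and 2.04, day 28 without at 0.86 and 0.747, and the CA lines at 0.402 and 0.255.

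Of a list of 47 other genes of the 2-cell programme 43 had a row, and 27 passed the filter in the culture fit and 34 in the fit with lines. From day 20 to day 28, 14 of 27 were higher without CA (18 with the block) and 25 with it (26 with the block), and none lower, against 3.94% (12.1%) and 4.54% (12.8%) of all genes. Without both CA libraries with liver transcripts, 0 of the 27 were called with CA, and 14 with the block. In untreated cultures fewer were then called as well, with or without the block. The filter asks for counts in 2 libraries, so low genes could enter the culture fit through day 28 with CA alone. Gm2016 did, with 0.873 and 0.496 CPM there and at most 0.255 CPM in the other cultures. Counts of calls and medians of the list in cultures are therefore tilted upward and are not read as support. Between CA and untreated at day 28 the median log2 fold change of the 27 was 2.09, against -0.01 over all genes. No list gene was called there, and with the block 2 were, Pramef25, a PRAME-family gene (1.95 ± 0.33, edgeR adjusted p = 0.0473), and BC080695 (1.83 ± 0.30, edgeR adjusted p = 0.0432), against 0.299% of genes; neither was called without the liver libraries. In the lines 30 of 34 were higher than at day 28 without CA, 29 higher and 1 lower than with CA, against 29.1% and 28.2% of genes higher. Between the CA lines and the ES or three-step line edgeR called 0 of the 34 in either, where it called 14 and 24 of all 19597 genes, and the median log2 differences of the 34 were -1.47 and -1.67. The summed level of the 43 was 3.29 and 4.53 CPM at day 20, 21.6 and 32.9 at day 28, 78.4 and 96.7 with CA, 179 and 292 in the CA lines, 733 in ES and 836 in the three-step line.

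The 6 most abundant of them did not all sit alike between culture and line. Gm20767 was 2.12 ± 1.33 CPM at day 28, 7.36 ± 1.68 with CA, 15.2 ± 3.27 in the CA lines (n = 2 each) and 29.3 in ES. Gm5662 was 0.512 ± 0.213, 2.21 ± 0.899, 38.3 ± 13.9 and 168 CPM in the same groups, and Gm2016 was 0.173 ± 0.116 and 0.685 ± 0.267 CPM at day 28 without and with CA, 17.6 and 10.5 in the CA lines and 63.4 in ES. The rise from day 28 with CA to the lines was a log2 fold change of 5.52 ± 0.53 for Gm5662, 5.75 ± 0.52 for Gm2016, 3.31 ± 0.39 for Tmem92, 1.87 ± 0.53 for Gm20767, 1.79 ± 0.37 for Pramef25 and 1.73 ± 0.41 for BC080695, all called by edgeR, with adjusted p from 2.48e-05 to 0.0134. Duxf3, the row of the Dux repeat family, had 0 counts up to day 20, 5 at day 28, 19 with CA, 50 over both CA lines, 94 in the three-step line and 58 in ES. Duxf3 was chosen for its role and not by the rule for named genes.

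Of 21 genes known to act on the 2-cell state, all tested, none was called between CA and untreated at any day, and with the block 1 was in the average over days, Tbx3, a T-box factor (0.40 ± 0.07, edgeR adjusted p = 0.00895, against 4.21% of genes higher; 0.429 without the block); it was not called without the liver libraries. Dppa2 rose from 0.816 and 0.799 CPM at day 20 to 6.11 and 4.11 at day 28 (log2 fold change 2.68 ± 0.31, edgeR adjusted p = 0.00366), and Dppa4 from 1.22 and 0.658 to 4.94 and 3.93 (2.25 ± 0.46, edgeR adjusted p = 0.0219). Without both CA libraries with liver transcripts Dppa4 was called only with the block. With CA at day 28 Dppa2 was 9.65 and 9.83 CPM, above both untreated libraries, with a log2 fold change of 0.93 ± 0.28 (edgeR adjusted p = 0.576). The repressors Trim28, Kdm1a and Rif1 had log2 fold changes of 0.06, -0.07 and 0.23 between untreated days 28 and 20, with edgeR adjusted p from 0.677 to 0.906. Of the 21, 14 were higher and 1 lower in the lines than at untreated day 28, against 5709 higher and 6220 lower of the 19597 genes.

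The genes whose pattern over the 19 libraries was most like that of summed Zscan4 were found by Pearson correlation of log2(CPM + 0.5), among 18848 genes with at least 10 counts in at least 2 libraries. The nearest were Pramef25 (0.996), Gm20767 (0.995), BC080695 (0.993), Gm5039 (0.988), Usp17le (0.987), AA792892 (0.987), Gm21818 (0.985), Crxos (0.983), Rpl10l (0.982) and Gm4340 (0.981). Tcstv1 ranked 18, Pou5f1 27, Tcstv3 29 and Zfp352 601, at 0.851. Of the 10 nearest, 5 were on the list of other 2-cell genes (Pramef25, Gm20767, BC080695, Usp17le and AA792892), Gm4340 is one of the 9, and 4 were in neither. Among the 36 pairs of the 9 genes the correlation ran from 0.882 to 0.999. These are descriptions over libraries that share the split between early cultures, late cultures and lines, and Gm21818 shares sequence with Tcstv1 and Tcstv3.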

How the data were processed

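Per the labels' protocols, RNA came from a Qiagen mini kit and sequencing used NEBNext Ultra RNA libraries. The sources used here do not give the aligner, counting tool, build, strand setting or annotation. The deposited tables hold whole-number read counts per Ensembl gene and FPKM values, both made by the authors. Of 20 columns of per-sample values 1 matched no label and was not used, which left 19 libraries. Symbols came from an annotation table, and 419 identifiers had none.

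The 9 genes, the other lists and the tests were chosen with earlier results of these data known. Counts were tested with edgeR 4.0.16 (R 4.3.3; quasi-likelihood F test, TMM factors, filterByExpr with a minimum count of 10, 2-sided, Benjamini-Hochberg adjustment over all genes), with the 5 Zscan4 rows or their sum in the table. The 14 culture libraries were fitted over 17387 genes and all 19 over 19597; the biological coefficient of variation was 23% and 21.7%, and 14.3% with the replicate block. Deviations of same-numbered libraries from their group means correlated at 0.258 to 0.578 over all 21 pairs of groups, so the numbers pair the libraries; the labels give no reason. Levels are CPM; a fold against 0 counts uses a floor of 3 counts over the group. Alternatives were RLE or total-count scaling, no filter, DESeq2 1.42.0, limma 3.58.1 (voom, and FPKM with a pseudocount of 1 or 0.1), a fit on just the groups compared, single libraries left out and the block. Fits without the day 16 libraries, fits without the CA libraries with liver transcripts, and the permutation within replicate pairs, were added after the data were seen. Scripts were tested on simulated data. The genes named were all 9, the 6 most abundant of the other 2-cell list, 6 regulators and the 10 nearest in pattern.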

Additional observations from a re-analysis of the deposited data

How the results depend on the processing

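The rise from day 20 to day 28 without CA, and the lines over day 28 with or without CA, kept their direction and call for the summed Zscan4 copies under all alternatives run. Log2 fold changes were 2.47 to 8.86 (the low end on FPKM + 1), 4.68 to 4.93 and 2.64 to 2.80 under alternatives other than leaving out single libraries, and 7.78 to 10.78, 4.52 to 5.33 and 2.4 to 2.93 with single libraries left out. Members called without CA were 5, against 685 of 17387 genes higher, and 2 with the compared groups alone (178 of 16085). They were 8 with no filter (1348 of 31202 genes higher), voom (774 of 17387), the replicate block (2106 of 17387) and the block without day 16 (2664 of 17178). For CA day 28 over day 20 the summed value was 8.26 (adjusted p = 0.0735, 0 members called) without the liver libraries, and single libraries left out gave 8.47 to 12.89 and 5 to 8 members. Members called in the lines over day 28 with CA were 6 to 9 with single libraries left out, and 9 each time over day 28 without.

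CA at day 28 passed for the sum with no filter (2.12), DESeq2 (2.12) and FPKM + 1 with or without a filter (1.93). It also passed with the replicate block, with (2.17) and without day 16 (2.16). In that order, members called were 5, 0, 8, 8, 2 and 5. Genes higher over all were 151 of 31202, 34 of 31202, 75 of 19454, 191 of 30849, 52 of 17387 and 237 of 17178. With single libraries left out the range for the sum was 1.77 to 2.56. Over all 15 alternatives the adjusted p ran from 2.15e-05 to 1. At day 24 the sum passed with no filter (2.13, 1 member, 96 of 31202 genes higher) and with the block without day 16 (2.06, 1 member, 191 of 17178). Averaged over days it passed with no filter (1.86, 1 member, 691 of 31202 genes higher) and FPKM + 1 (0.86, 6 members, 161 of 19454). Members called were 1 on FPKM + 0.1 (91 of 19454), 5 on FPKM + 1 unfiltered (225 of 30849) and 1 with the block without day 16 (1325 of 17178). The difference between days 28 and 20 turned to -0.28 without the liver libraries and ran from -1.45 to 4.36 with single libraries left out. On FPKM + 1 with and without a filter, 1 and 4 members were called, against 6 of 19454 and 113 of 30849 genes in either direction. At day 20, on 1 to 3 counts, the range was -2.24 to 3.56. For the 9 genes and their sum the block changed no other call. In the day 28 over day 20 comparisons it moved the other 2-cell genes called from 14 to 18 without CA and from 25 to 26 with it, and the regulators called from 2 to 3 and from 2 to 5 of 21. Over all genes the block moved the share called higher from 3.94% to 12.1% without CA and from 4.54% to 12.8% with it. The added regulator calls are therefore not read as a result about regulators. The exact permutation within days gave 0.92 to 1.37 with single libraries left out, and 1.15 (p = 0.0625) with labels exchanged within pairs.

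CA lines against ES passed with no filter (-1.98), voom (-2.02), FPKM + 1 filtered or not (-2.0) and the compared groups alone (-1.98), calling 4, 5, 5, 6 and 7 members. Genes lower over all were 45 of 33049, 83 of 19597, 304 of 20308, 934 of 30849 and 1069 of 16743 in that order. DESeq2 called 2 members (47 of 33049 genes lower) and FPKM + 0.1 called 1 (44 of 20308). Against the three-step line the values were -1.81, -1.86, -1.84, -1.84 and -1.84, with 5, 5, 8, 8 and 9 members. Genes lower over all were 109 of 33049, 181 of 19597, 450 of 20308, 1210 of 30849 and 1707 of 17121 in that order. DESeq2 called 2 members (105 of 33049 genes lower) and FPKM + 0.1 called 1 (93 of 20308). At day 24 single libraries left out gave -0.11 to 2.09 for Zscan4f and -3.69 to 2.18 for Gm4340, both negative without the first CA library. The cause of these changes was not tested; fits of the compared groups alone have few residual degrees of freedom. Summing all rows named Zscan4 gave the same 5 rows. Depth limits days 16 to 24, where a gene had under 25 counts a group, and Zfp352 in all cultures.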
